A study of Mus musculus with 2 samples.

Results

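The mRNA of 10 mouse antioxidant enzymes, Sod1, Sod2, Sod3, Cat, Gpx1, Gpx3, Gpx4, Prdx1, Prdx2 and Prdx5, was examined in primary chondrocytes around a bout of mechanical loading. The genes were chosen by name from the superoxide dismutases, catalase, glutathione peroxidases and peroxiredoxins. No measured value stood in the rule, but earlier results of these data were known when the genes were chosen. Other glutathione peroxidases and peroxiredoxins, such as Gpx8 and Prdx4, are not among the 10 and are described further below. The 10 are among the 20660 genes that could be named on the arrays. They were measured by 12 probes, found through the RefSeq transcript that the array design lists for each probe. Both groups were primary chondrocytes from 6-day-old C57BL/6J mice, with no genetic change and no drug stated, seeded on fibronectin in silicon stretch chambers for 48 h. The first group was taken before the loading. The second was taken 24 h after a 30 min bout of cyclic stretching (10% elongation, 0.5 Hz). Each group was 1 one-colour array, and the number of mice or cultures behind each RNA is not given in the sources used here. An array of cells kept unloaded for the same 24 h was not analysed here, so loading and further culture cannot be told apart.

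Superoxide dismutases turn superoxide into hydrogen peroxide, which catalase, glutathione peroxidases and peroxiredoxins then remove. Catalase does so in peroxisomes without a cosubstrate, glutathione peroxidases draw electrons from glutathione, and peroxiredoxins draw them mainly from thioredoxin. Chondrocytes are embedded in a matrix that oxidants can damage, and extracellular superoxide dismutase is a known component of cartilage. The study examined reactive oxygen species as a step between loading and gremlin-1. It detected them soon after loading and reported them diminished within hours, well before the 24 h array. The question here is how the mRNA of the enzymes that remove them stood at 24 h.

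A single array stood for each time point, so the values carry no error between replicates and were not tested. The values are the scanner software's background-subtracted spot intensities, and a log2 ratio is the level at 24 h minus that before loading, once each array is set to its 75th percentile (an intensity of 466 on both). The error printed with a ratio joins the software's errors of both spots and covers only error within the arrays. It was 0.20 on the log2 scale for each of the 10 genes, so 2 such errors span a fold of 1.33. Over the 10 it ran only from 0.2040 to 0.2043, and its median over detected genes was 0.2043. For genes this bright it is thus a near-constant term rather than a scatter measured for each gene. As a second gauge, repeated spots of a probe scattered in their log2 ratio with a median SD of 0.06 over 136 probes printed at least 8 times in the intensity range of these genes. The largest SD there was 0.21. This scatter also lies within the 2 arrays and says nothing of replicates. Counts beyond 1 or 2 within-array errors given below use the wider software error, not this scatter. A gene is called detected when its brightest probe was well above background on both arrays, which held for 14231 genes and for all 12 probes of the 10 enzymes. A gene is abundant when its mean lay above the 75th percentile, which held for all 10 and for 8564 genes in all. No spot was saturated. Levels of different probes cannot be set against each other, since each probe binds with its own strength.

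These 10 antioxidant enzymes differed little between the 2 arrays. Of the 10 genes, 6 were higher and 4 were lower at 24 h, beside 47.6% of detected genes above 0 and 52.4% below. None of the 10 passed 1.5-fold in either direction, which 9.49% of detected genes and 5.25% of abundant genes did, and none passed 2-fold, which 2.49% of detected genes did. The largest difference of the 10 was 1.31-fold, that of Gpx3. Only 3 of the 10 differed by more than 1 within-array error, Gpx3 and Prdx1 downwards and Prdx2 upwards, beside 43.4% of detected genes (20.4% higher, 22.9% lower), and 0 differed by more than 2. An interval of 2 within-array errors reached past 1.5-fold for 4 of the 10, Gpx1 (down to -0.59), Gpx3 (-0.80), Prdx1 (-0.65) and Prdx2 (up to 0.75), so this precision leaves room for differences of that size there. The median log2 ratio was 0.05 over the 10 genes and -0.01 over all detected genes. In bulk RNA, fewer cells of a type and less RNA per cell cannot be told apart.

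**Figure D1:**
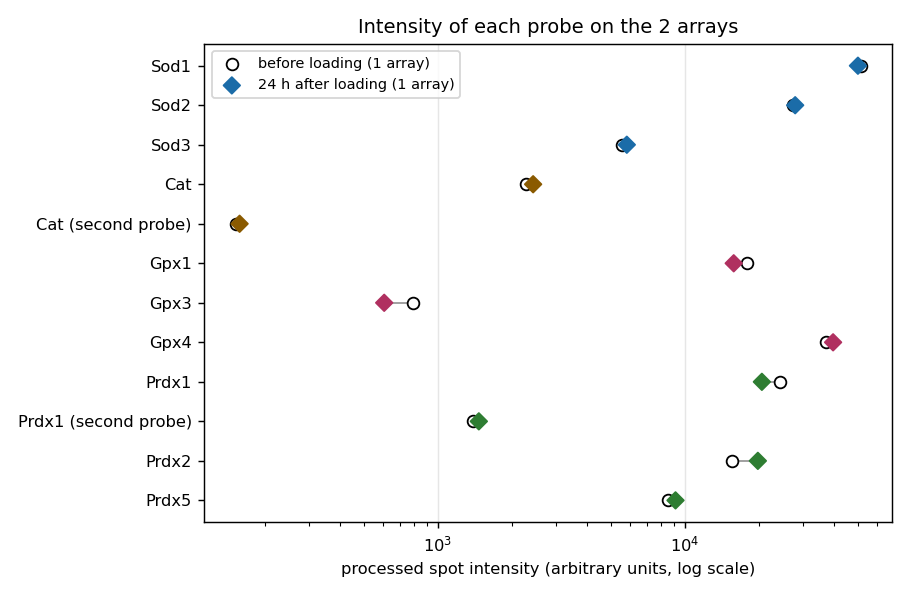
Processed intensity of the 12 probes before loading (open circles) and 24 h after (diamonds), in arbitrary units on a log axis. Each symbol is 1 array, so there is no error bar; the symbols of a probe lie close together for all but Gpx3, Prdx1 (brightest probe) and Prdx2, and levels of different rows are not comparable.

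All 3 superoxide dismutases had log2 ratios well below 1 within-array error. Sod1, the cytosolic copper and zinc enzyme, had an intensity of 51737 on the array before loading and of 50195 on the later array. Its log2 ratio was -0.04 ± 0.20 (within-array error), and its direction was not settled, since it turned positive under 6 of 12 other ways of processing. Sod2, the manganese enzyme of the mitochondrial matrix, went from 27511 to 27955, a log2 ratio of 0.02 ± 0.20. An interval of 2 within-array errors around that value runs from -0.38 to 0.43. Sod3, the secreted enzyme that binds matrix polysaccharides, went from 5542 to 5815, a log2 ratio of 0.07 ± 0.20. The 3 ratios spanned 0.11 on the log2 scale, less than the within-array error of any of the cytosolic, mitochondrial and extracellular forms. Copper delivery to Sod1 runs through Ccs, its chaperone, which had 7210 and 6625 on the arrays, a log2 ratio of -0.12 ± 0.20.

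Catalase, Cat, had 2 probes with nearly the same ratio. Its brightest probe went from 2275 to 2427, a log2 ratio of 0.09 ± 0.20, and its second probe from 151 to 157, a log2 ratio of 0.05 ± 0.21. The 2 ratios lay 0.04 apart, and 87.4% of the 3635 genes with more than 1 detected probe had a wider range. Catalase enters peroxisomes through the receptor Pex5, which had a log2 ratio of 0.07 ± 0.20.

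The log2 ratios of the 3 glutathione peroxidases among the 10 ran from -0.39 to 0.10. Outside the 10, the detected Gpx2, Gpx7 and Gpx8 had -0.36, -0.03 and 0.54. Gpx3, the secreted form, went from an intensity of 793 to 605, a log2 ratio of -0.39 ± 0.20 or 1.31-fold lower. It was the lowest of the 10, and 11.3% of detected genes had a lower ratio. Gpx1, the abundant cytosolic selenoenzyme, went from 17852 to 15760.3, a log2 ratio of -0.18 ± 0.20. Gpx4, which reduces lipid hydroperoxides in membranes and guards against ferroptosis, went from 37189 to 39814, a log2 ratio of 0.10 ± 0.20. Between Gpx4 and Gpx3, the highest and the lowest of the 3 members, the difference of ratios was 0.49, with a combined error of 0.29. Scaling each array as a whole leaves this contrast as it is by construction, but other steps changed it. Quantile normalization put Gpx4 at 0.23 and Gpx3 at -0.38. Subtracting the median of spots within 100 µm put Gpx4 at 0.02 and Gpx3 at -0.34. Gpx1, Gpx3 and Gpx4 carry selenocysteine at the active site. Of the 10 genes listed for its synthesis and insertion 4 were higher and 6 lower, beside 52.4% of detected genes below 0. The median log2 ratio of that list was -0.14. It was -0.04 when the arrays were scaled by their medians and -0.02 with spike-in scaling.

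The peroxiredoxins lay on both sides of 0. Prdx2, a cytosolic peroxiredoxin that is also plentiful in red blood cells, went from 15581 to 19739.5, a log2 ratio of 0.34 ± 0.20 or 1.27-fold higher, and 89.1% of detected genes had a lower ratio. Prdx1, its close cytosolic relative, went from 24215 to 20494 on its brightest probe, a log2 ratio of -0.24 ± 0.20. The second Prdx1 probe pointed the other way, from 1379.7 to 1463, a log2 ratio of 0.09 ± 0.20. The 2 probes lay 0.33 apart, more than the median range of 0.19 between probes of a gene, although 30.3% of genes with several detected probes had a wider range. The mean of both Prdx1 probes was -0.08, so the direction of Prdx1 rests on the probe. Prdx5, found in mitochondria, peroxisomes and the cytosol, went from 8533 to 9158, a log2 ratio of 0.10 ± 0.20. On the brightest probes Prdx2 and Prdx1 differed by 0.58, with a combined error of 0.29, and against the second Prdx1 probe the difference was 0.26.

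**Figure D2:**
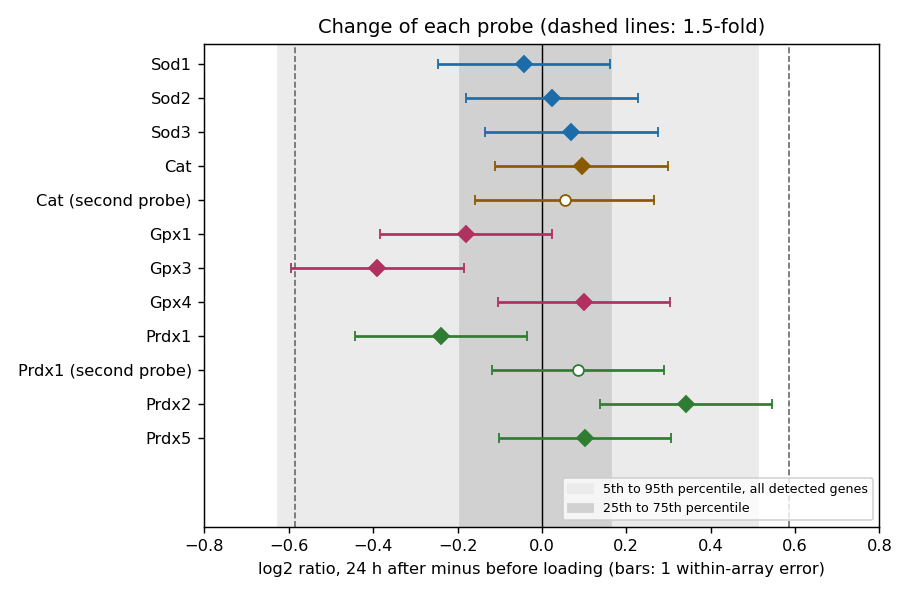
Log2 ratio of the 12 probes (diamonds, brightest probe of a gene; open circles, second probe), with bars of 1 within-array error and grey bands for the ranges of all 14231 detected genes. All 12 points lie inside the 1.5-fold lines and inside the band from the 5th percentile (-0.63) to the 95th (0.51), and 7 of the 10 genes lie between the 25th (-0.20) and the 75th (0.16).

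The spots near these probes were looked at for differences by place on the array. Between 10 and 22 detected spots lay within 100 µm of each of the 12 probes, and their median log2 ratio ran from -0.12 to 0.11, which is as wide as most of the ratios of these genes. At most 1 of them per probe differed more than 2-fold. Around the Prdx2 spot the median was 0.08 and around that of Prdx1 0.09. Subtracting the local median left Prdx2 at 0.26 and moved Prdx1 to -0.33. Gpx3 lay among spots with a median of -0.05 and moved to -0.34. The same step moved Sod2 from 0.02 to 0.14, Cat from 0.09 to 0.17 and Gpx4 from 0.10 to 0.02.

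Promoters are shown for the 3 members whose brightest probe differed by more than 1 within-array error, Gpx3, Prdx1 and Prdx2, and for Sod1, which shares a motif with Prdx1. RefSeq (GRCm38.p6) gave a promoter for 9 of the 10 genes, all but Sod3, in 12 windows because Gpx4 has several starts. Printed are the 250 bases before the annotated start, all on the forward strand: Sod1 at chr16:90220512-90220761, Gpx3 at chr11:54902604-54902853, Prdx1 at chr4:116685349-116685598 and Prdx2 at chr8:84969372-84969621. Capitals mark an antioxidant response element (TGACNNNGC, the NRF2 motif) in Sod1 and Prdx1, an Sp1 box (GGGCGG) in Gpx3 and the HIF core GCGTG in Prdx2, each found on either strand.
Sod1: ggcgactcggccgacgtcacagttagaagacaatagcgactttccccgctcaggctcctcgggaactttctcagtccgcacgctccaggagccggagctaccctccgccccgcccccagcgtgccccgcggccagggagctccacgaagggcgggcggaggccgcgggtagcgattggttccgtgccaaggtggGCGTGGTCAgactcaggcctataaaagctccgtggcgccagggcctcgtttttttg
Gpx3: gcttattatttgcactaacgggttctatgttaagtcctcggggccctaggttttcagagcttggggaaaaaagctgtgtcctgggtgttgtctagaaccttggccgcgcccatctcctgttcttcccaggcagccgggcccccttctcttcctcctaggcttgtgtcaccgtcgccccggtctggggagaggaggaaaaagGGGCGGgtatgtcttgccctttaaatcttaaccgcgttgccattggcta
Prdx1: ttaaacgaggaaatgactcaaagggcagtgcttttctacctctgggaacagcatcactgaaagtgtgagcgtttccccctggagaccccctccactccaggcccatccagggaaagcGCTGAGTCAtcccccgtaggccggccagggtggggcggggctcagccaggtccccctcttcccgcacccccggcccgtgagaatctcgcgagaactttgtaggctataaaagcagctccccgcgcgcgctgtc
Prdx2: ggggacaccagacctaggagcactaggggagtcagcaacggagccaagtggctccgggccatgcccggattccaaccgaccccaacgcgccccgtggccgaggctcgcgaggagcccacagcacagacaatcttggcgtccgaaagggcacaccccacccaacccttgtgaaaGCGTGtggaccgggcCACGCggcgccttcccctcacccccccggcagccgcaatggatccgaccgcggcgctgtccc

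The antioxidant response element was found in 2 of the 12 windows, those of Sod1 and Prdx1, and in 10.2% of all 32851 windows of this length. In Prdx1 it reads GCTGAGTCA, begins 133 bases before the start and overlaps an AP-1 site (TGACTCA on the other strand), a motif held by 4.46% of windows. Another AP-1 site begins 237 bases before the start. In Sod1 it overlaps a GCGTG. The HIF core GCGTG stood in 8 of the 12 windows (6 genes) and in 28.2% of all windows, and the other form of that core, ACGTG, in Gpx1 alone and in 16.6% of all. An Sp1 box stood in 9 of the 12 windows (7 genes) and in 32.7% of all, and a CCAAT box in 7 of the 12 (5 genes) and in 33.8%. Several of the 12 windows are of Gpx4, and those starting at 80053315 and 80053409 overlap, so a site they share counts in both. The GC content of the 12 windows ran from 42% (Gpx1) to 69.2% (Prdx2), beside a median of 52.4% over all windows. All but that of Gpx1 lay above that median. Their CpG counts ran from 2 to 26, beside a median of 6. The shares of GCGTG and GGGCGG were not compared with windows of like composition, so they do not show enrichment. TATAAA stood in 2 of the 12, Sod1 and Prdx1, and in 12.4% of windows. The FOXO letters GTAAACA stood in none of the 12 windows and in 3.17% of all. These are matches of letters. Sod1 and Prdx1, which share the antioxidant response element, had log2 ratios of -0.04 and -0.24 on their brightest probes. The second Prdx1 probe had 0.09, and Sod1 turned positive under 6 of 12 other ways of processing. Whether the motif bears on these values was not tested.

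The genes around these enzymes were described from 8 lists, 130 different genes, of which 116 were detected. Of the 116, 53 were higher and 63 lower, with a median log2 ratio of -0.02. Past 1.5-fold, 3 lay above and 3 below, beside 3.65% and 5.84% of detected genes. Of the other peroxidases 8 of 13 were detected, 4 higher and 4 lower. They ran from Gpx2, the epithelial glutathione peroxidase, at -0.36 ± 0.22, to Gpx8, a peroxidase of the endoplasmic reticulum, whose intensity of 7519 before loading and 10963 at 24 h gave 0.54 ± 0.20. Among the remaining peroxiredoxins, Prdx3 of the mitochondria had 0.12 ± 0.06 over repeated spots and Prdx4 of the endoplasmic reticulum -0.32 ± 0.20. Prdx6 had 0.22 ± 0.20 on the brightest of its 4 probes, and 0.08 and 0.06 on the other detected ones.

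Peroxiredoxins are recycled by thioredoxin. Of 19 genes of the thioredoxin and glutaredoxin system, all detected, 15 were lower and 4 higher, beside 52.4% of detected genes below 0. Beyond 1 within-array error 5 were lower and 3 higher. The median log2 ratio of the 19 was -0.09, with none past 1.5-fold. The count below 0 depended on the scaling, and so did the share of all detected genes below 0. With loess or quantile normalization 10 or 11 of the 19 were lower, beside 47.5% and 46.4% of all. When the arrays were scaled by their medians 9 were lower (list median 0.01), beside 36.9% of all. Scaling to spike-in controls also gave 9 (list median 0.02), beside 34.6%. Txn1, cytosolic thioredoxin itself, went from 32136 to 25906, a log2 ratio of -0.31 ± 0.20, and Txnrd1, its reductase, had -0.01 ± 0.20. Srxn1, which restores overoxidised peroxiredoxins, had -0.20 ± 0.20. The lowest was Msra (-0.56 ± 0.20) and the highest Msrb2 (0.54 ± 0.20), both methionine sulfoxide reductases.

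Glutathione peroxidases draw on glutathione, and of 24 listed genes for its synthesis, reduction and transfer 23 were detected, 11 higher and 12 lower. Past 1.5-fold, Oplah, which returns oxoproline to glutamate, went from 866 to 1547 (0.84 ± 0.20) and Ggt7, of the gamma-glutamyltransferase family, from 144 to 221 (0.61 ± 0.21). Gsto1, an omega class glutathione transferase, was 1.58-fold lower, from 18993 to 11999.8, a log2 ratio of -0.66 ± 0.20. The rate-limiting enzyme pair of synthesis, Gclc and Gclm, had -0.13 ± 0.20 and -0.25 ± 0.21. Glutathione reductase, Gsr, had -0.11 ± 0.20 on its brightest probe and 0.03 ± 0.20 on the other.

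Genes that make oxidants were measured weakly in part: of 18 listed, 17 had a matched probe (Duox2 had none) and 12 were detected, 6 higher and 6 lower. The phagocyte oxidase subunit Cybb stayed near background on both arrays, and Nox4 was only just above it, with a log2 ratio of -0.15 ± 0.41. Cyba, the membrane subunit shared by several NADPH oxidases, went from 4742 to 4894, a log2 ratio of 0.05 ± 0.20, with -0.05 ± 0.20 on its second probe. Rac1, which activates some of these oxidases, had -0.25 ± 0.20 on its brightest probe and 0.17 ± 0.20 on the second, so its probes disagreed in sign. The members past 1.5-fold were both dim: Maob, a mitochondrial monoamine oxidase that releases hydrogen peroxide, from 27.9 to 65.8 (1.24 ± 0.33), and Xdh, xanthine dehydrogenase, from 50.4 to 30.5 (-0.72 ± 0.28).

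In the list for metal supply 11 of 13 genes were detected, 5 higher and 6 lower. Hmox1, haem oxygenase and a classical NRF2 target, went from 18957 to 11702, a log2 ratio of -0.70 ± 0.20, with -0.43 ± 0.20 on its second probe. The highest of that list was Slc40a1, the iron exporter ferroportin (0.33 ± 0.20). Of the selenocysteine genes, Sepsecs, which makes selenocysteine on its tRNA, was lowest (-0.53 ± 0.21), and Selenop, the selenium transport protein, was highest (0.33 ± 0.20). Of 16 peroxisome import and assembly genes 12 were higher and 4 lower, with a median of 0.11, beside 47.6% of all detected genes above 0, although beyond 1 within-array error 3 were higher and 4 lower. They ran from Pex16 (-0.28 ± 0.20) to Pex11a (0.27 ± 0.07 over repeated spots). The number above 0 was 11 or 12 under each setting run, but the share of all detected genes above 0 was not fixed. It rose to 63.1% when the arrays were scaled by their medians and to 65.4% with spike-in scaling. There 12 of the 16 were higher. The 17 transcription regulators, all detected, had a median of -0.04, from Sirt1 (-0.47 ± 0.20) to Ppargc1a (0.34 ± 0.22). Nfe2l2, which encodes NRF2, and Keap1, its inhibitor, had -0.08 ± 0.20 and -0.17 ± 0.20.

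**Figure D3:**
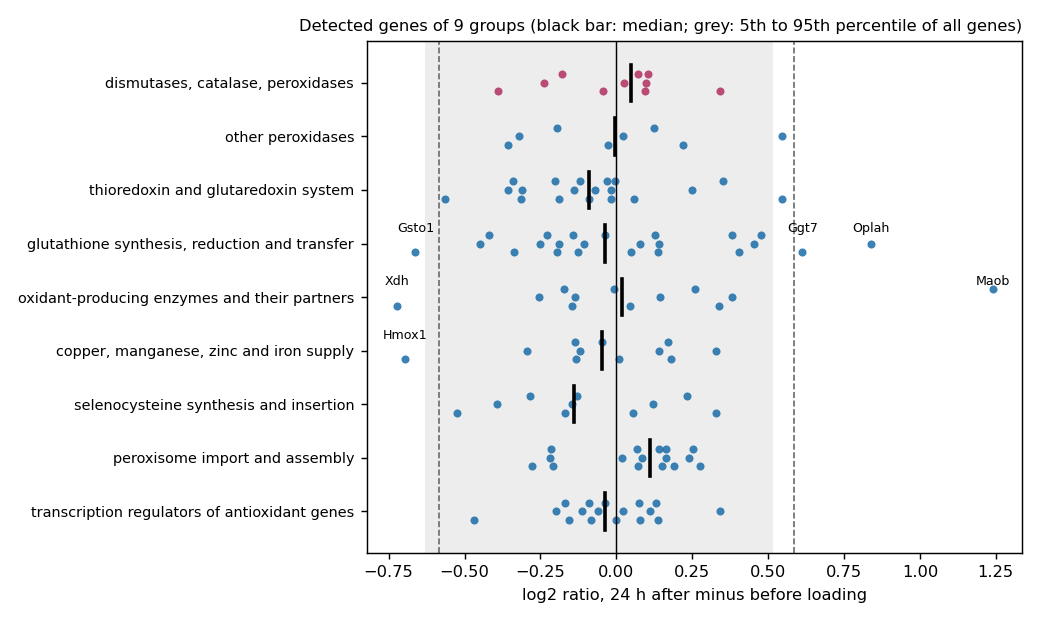
Log2 ratio of each detected gene in the 10 enzymes (top row) and the 8 lists of surrounding genes, with the median of each as a black bar, 1.5-fold as dashed lines and the 5th to 95th percentile of all detected genes in grey. The 10 enzymes lie between -0.39 and 0.34 around a median of 0.05, and the 6 labelled genes of the other lists are those past 1.5-fold.

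The labelled cell type was checked on marker genes. All 8 chondrocyte markers were detected, among them Col2a1 (499543 and 474876, log2 ratio -0.07) and Acan (0.34), with 4 higher and 4 lower and 1 past 1.5-fold, Col11a1 (-0.82), beside all 5 fibroblast markers (Col1a1 at 34458 and 33493, Col3a1 at 0.13). Of the 5 hypertrophic markers 4 were more than 1.5-fold lower, Col10a1 and Ihh among them (-1.54 and -1.30), and Mmp13 was higher (0.49). The erythroid markers matter here because red cells are rich in Prdx2, Cat and Gpx1: of 5 listed, 4 had a matched probe (Hbb-b1 had none) and 3 were detected, Slc4a1 stood at 60.1 and 55.7, Alas2 was not well above background, and the summed intensity of the list was 151 on the first array and 149 on the second. Macrophage markers summed to 4141 and 3949, with 5 of 6 detected and no probe matched for Cd68. A sum over probes is carried by the brightest, here Csf1r at 3646 and 3288. Of the 5 detected, 3 were higher and 2 lower. Lyz2 stood at 367 and 506 (0.46 ± 0.20), Adgre1 at 55.6 and 59.0 and the dim Ptprc at 20.9 and 46.1. The 3 detected adipocyte markers of 4 were all more than 1.5-fold higher, Adipoq by 2.29 and Plin1 by 1.01 on the log2 scale, and the list summed to 869.7 and 1833. Of 4 skeletal muscle markers detected among 5, Acta1 had -0.31, Myog -0.13, Tnnt3 -0.78 and Myh3 0.64. Of the endothelial markers 2 of 4 were detected, Pecam1 (0.23) and Kdr (-0.05), with Kdr at 12774 and 12375. Among the neutrophil markers Mpo, S100a8 and S100a9 were not well above background on both arrays, while Elane stood at 7012 and 5987. The part of these cell types in the values of the antioxidant enzymes was not tested.

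The choice of scaling moved these genes together. Scaling by the medians added 0.10 to every log2 ratio and scaling to 240 spike-in spots added 0.12, which raised the share of all detected genes above 0 from 47.6% to 63.1% and 65.4%. With either, 7 of the 10 enzymes were higher and 3 lower, since Sod1 turned positive. Relative to the median of all detected genes, which such a shift leaves as it is by construction, Gpx3 lay at -0.38 and Prdx2 at 0.36. Loess put Gpx3 at -0.41, and subtracting the local median put Prdx2 at 0.24. No setting brought any of the 10 past 1.5-fold, and the largest log2 ratio reached was 0.46, that of Prdx2 with spike-in scaling.

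**Figure D4:**
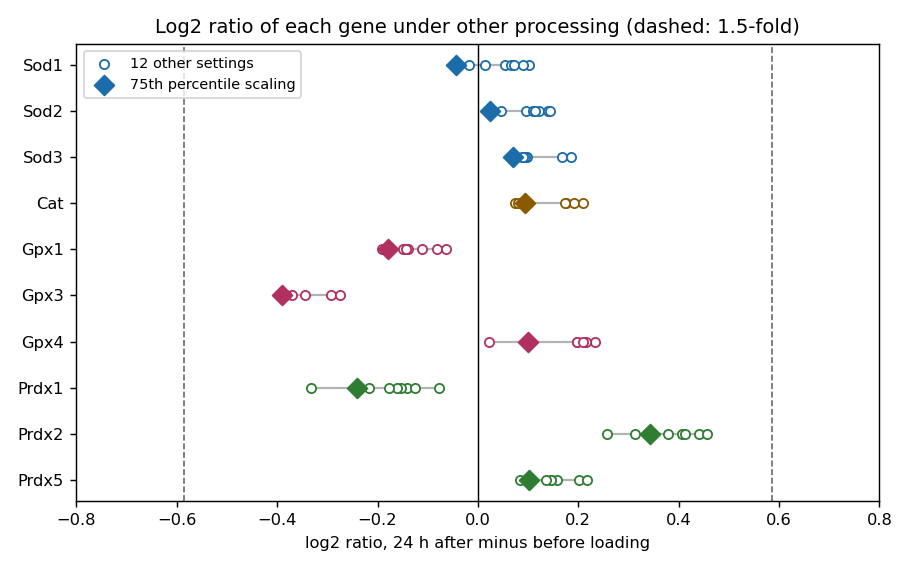
Log2 ratio of the 10 genes with 75th percentile scaling (diamonds) and under 12 other ways of processing the same 2 arrays (open circles), with 1.5-fold as dashed lines. Gpx3 lies from -0.39 to -0.27, where it meets the lowest points of Prdx1, Prdx2 lies from 0.26 to 0.46, and Sod1 is the only gene whose points fall on both sides of 0.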

How the data were processed

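Each RNA (0.1 µg) was labelled with Cy3 and put on 1 one-colour Agilent SurePrint G3 mouse array, both on 1 slide. What the authors deposited is an intensity per spot from Agilent Feature Extraction 10.10.1.1, after background subtraction and detrending, with no normalization between arrays, and a table of the same intensities that differed from them by at most 0.497%. The design is annotated on mm9, and no coordinates of genes on it were used.

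Of 59305 spots other than controls, those marked as outliers on either array (141 before loading, 138 at 24 h) were left out, and log2 intensities of the spots of one probe were averaged, which gave 55678 probes. The 75th percentile of each array was subtracted. Probes were named by accession through RefSeq (27235 matched), and the brightest probe stood for a gene. Within-array errors combine the software's errors of both spots.

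The 10 members, the 8 pathway lists and the 9 marker lists were chosen with earlier results of these data known. Named are the 10 members with every probe, and of each pathway list the genes past 1.5-fold and the highest and lowest; the other genes named from these lists (such as Ccs, Pex5, Prdx3, Txn1, Gclc, Rac1 and Nfe2l2) were added for their roles with their values in view. Of each marker list at least 2 defining genes are given; 1 marker was left out of its list, and the other markers enter the counts and sums. A search for genes with a like pattern was not run, since 2 arrays give 1 ratio per gene. The functions were tested on simulated data. Of the alternatives to this processing, 10 were planned and 2 were chosen after seeing the data; counts were also taken of genes past a fold by more than 2 within-array errors. Normexp (offset 50, on the median spot signal), quantile normalization and loess used limma 3.58.1 in R 4.3.3. All else ran on pandas 2.3.3, numpy 2.4.6 and scipy 1.17.1 under Python 3.11.15.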

Additional observations from a re-analysis of the deposited data

How the results depend on the processing

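Under the 12 alternatives run for each of the 10 genes, all 120 log2 ratios stayed within 1 within-array error (0.20) of the value reported, and the counts past 1.5-fold and 2-fold stayed at 0. That bound is wide, since 6 of the 10 had an absolute log2 ratio under 0.11. Asking for the fold to be passed by more than 2 within-array errors could give no other count. Several of the alternatives could hardly move these genes. Loosening or dropping the filter on dim probes left every value as it was, since all 10 were detected. Keeping flagged spots or using the deposited table changed them little, and the mean over probes could change only Cat and Prdx1. Scaling by the medians or to spike-in spots added a fixed 0.10 or 0.12, less than the error. The sign was kept in all 12 for 9 genes. Sod1 turned positive in 6, with normexp correction, median, quantile, loess and spike-in scaling, and when the median of probes of like intensity was subtracted; its highest value was 0.10. Of 10 medians (8 lists, the 10 enzymes and all detected genes), all 120 values moved by less than 0.20. That yardstick is wide beside the medians themselves, which lay between -0.14 and 0.11. The medians of the 10 enzymes, the selenocysteine list and the peroxisome list kept their sign throughout. Each of the other medians, that of all detected genes included, changed sign under some setting. Subtracting the median of spots within 100 µm and that of the probes nearest in intensity were chosen after seeing the data. No paired analysis was possible because each time point has a single array, and for that reason no array could be left out. The number of arrays limits the precision, and spots well above background began at intensities of 17.3 and 17.8 on the arrays.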

Other observations

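Several genes of the surrounding lists, picked after their values were seen, had probes that did not give the same ratio. Glrx2, a glutaredoxin, had 3 probes with intensities before loading of 493024, 4067 and 40.9, whose log2 ratios were -0.07, 0.09 and 0.73. Sephs1 had 0.06 on its brightest probe and 0.75 on a dimmer one, where the intensity went from 75.8 to 127. Mgst3, a microsomal glutathione transferase, had -0.14 and -0.74. In contrast, the 3 probes of Trnau1ap, a factor of selenocysteine insertion, had -0.39, -0.38 and -0.31, and the probe pairs of Gstp1 (0.38 and 0.42), Mgst1 (0.45 and 0.55) and Ftl1, the ferritin light chain (-0.29 and -0.43), had the same sign. Elane, listed as a neutrophil gene, had intensities of 7012 and 5987 while Mpo, S100a8 and S100a9 were not well above background on both arrays.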
